A study of Mus musculus with 9 samples.

Results

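A fertilised mammalian egg is activated by repeated rises of calcium in its cytoplasm, and the genes described here encode channels, a store pump, a store sensor and kinases of that signal. The list held 10 genes, namely Itpr1, Orai1, Stim1, Trpv3, Trpm7, Cacna1h, Camk2g, Camk2d, Camk1d and Atp2a2, and took every probe set that the platform annotation assigned to one of them and to no other gene. It found 8 of the 10 genes, with 28 probe sets out of 45037 on the array. Itpr1 and Trpv3 had no such probe set and were not analysed here.

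The arrays read mRNA bound to polysomes, that is, to clusters of ribosomes, from mouse oocytes at germinal vesicle (GV) stage, metaphase I (MI) and metaphase II (MII), with 3 arrays per stage and 9 in all. GV oocytes are held in prophase of the first meiotic division, MI oocytes are in that division, and MII oocytes are eggs arrested and ready for fertilisation. All mice had received pregnant mare serum gonadotropin, and 48 h later human chorionic gonadotropin for 0 h (GV), 4 h (MI) or 14 h (MII). The labels give no strain, age or number of animals behind an array, and the description field of the MI samples reads pGVB without an explanation. The labels call the arrays of a stage biological replicates from independent sample sets but tie none to particular animals, so every p-value measures only the spread between these samples. A change in polysome-bound signal can come from a change in the amount of an mRNA or in the share of it on ribosomes, and these cannot be told apart in these data.

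In textbook accounts, the sperm brings a phospholipase that makes inositol trisphosphate, which opens the receptor channel Itpr1 and lets calcium out of the endoplasmic reticulum. The pump encoded by Atp2a2 refills that store, Stim1 senses when it is empty and opens Orai1 in the plasma membrane, and Trpv3, Trpm7 and Cacna1h are further entry channels described in mouse eggs. Calcium bound to calmodulin then switches on kinases, of which the gamma form of calmodulin kinase II, encoded by Camk2g, is the one known to release mouse eggs from metaphase II arrest. Oocytes gain the ability to respond with a full series of calcium rises as they mature, which is why the stages before fertilisation are of interest.

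Of the 8 genes, 1 passed the test of change, between GV and MII. Camk1d, which encodes a calmodulin-dependent kinase of the type I family, averaged an intensity of 542 ± 425 in MII eggs and 6.81 ± 0.55 in GV oocytes (SD, n = 3 each). The GV values lie at background, so the size of its rise depends on the constant added before taking logs. The gamma kinase gene Camk2g had lower values in every MII and every MI array than in any GV array, without passing the test, and the entry channel gene Orai1 had its highest values at MI. The pump gene Atp2a2 had strong signal with overlapping stages, while Stim1 and Camk2d gave only background signal.

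A probe set is called above background where its mean in at least one stage reached an intensity of 50.3, the median of all genes' means, and 14 of the 28 did. The others were both probe sets of Stim1, all 7 of Camk2d, 2 of 6 of Atp2a2, and 1 each of Trpm7, Cacna1h and Camk1d. Intensities are on the authors' linear scale, and changes are differences of log2(intensity + 16), which understates the change of dim probe sets. The brightest probe set stood for a gene, and a gene was called at a Benjamini-Hochberg adjusted p under 0.05 from limma over 18193 genes. Other probe sets were tested likewise over 45037 probe sets. The array's number of probes on a gene differs and probes bind unequally, so levels are compared between arrays and never between probe sets.

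The arrays had medians of 12.39 to 13.22 and 95th percentiles of 1126 to 1458, and in each array 53.1% to 54.8% of probe sets read under 16. All 11 of 11 oocyte markers, among them the zona pellucida genes and Gdf9, were above background, with summed intensities of 50363 to 54821 at GV, 45286 to 49805 at MI and 28557 to 35420 at MII. Of 18 measured granulosa, cumulus and theca markers 11 were above background, with sums of 1083 to 1226 at GV, 1155 to 1633 at MI and 786 to 1181 at MII. The brightest was Cyp11a1, a steroid synthesis enzyme, with means of 531 at GV, 530 at MI and 163 at MII. Nr5a2 averaged 85.2, 129 and 444 and Star 163, 62.1 and 80.2 at the same stages. Fshr, Amh and Cyp17a1 stayed below background, as did the stage means of Foxl2, although it read 95.04 in GV array 3. Blood, immune and endothelial markers above background numbered 3 of 9, with sums of 379 to 857 at GV, 471 to 863 at MI and 644 to 925 at MII.

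**Figure D1:**
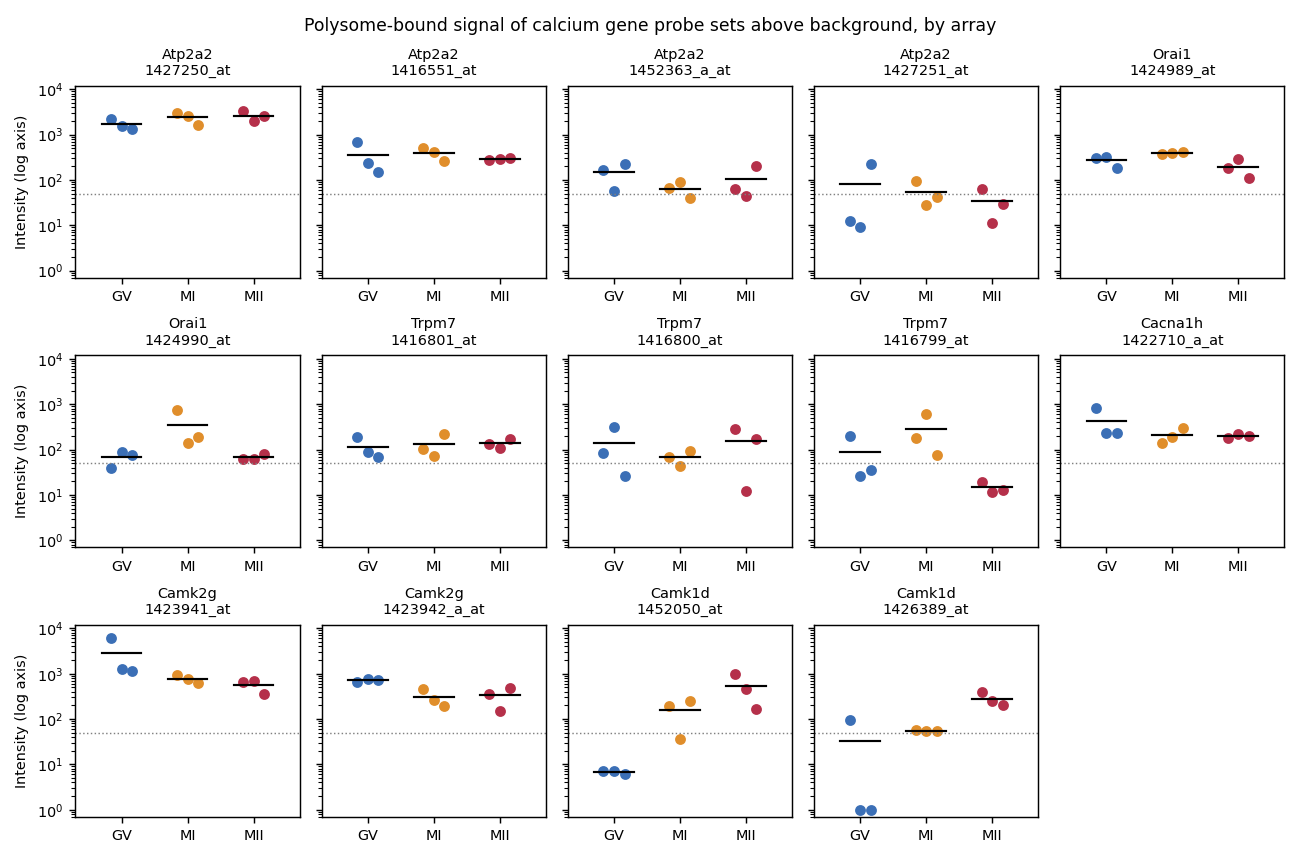
Intensity in each array (log axis) of the 14 probe sets above background, 1 panel per probe set, by stage from GV through MI to MII; points are single arrays, bars are stage means and the dotted line is the background level of 50.3. The means of both Camk1d panels climb towards MII, and both Camk2g panels have all MI and MII points below all GV points.

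Atp2a2 encodes SERCA2, the pump that returns calcium from the cytoplasm to the endoplasmic reticulum. Its brightest probe set, 1427250_at, read 2202, 1531 and 1341 in the 3 GV arrays, 2976, 2594 and 1664 in the MI arrays, and 3335, 1972 and 2613 in the MII arrays. The MII values stood towards the top of the range, but GV array 1 was above one MII array and above one MI array, so no pair of stages was separated. The log2 change was 0.64 in MII against GV (SE 0.32, 95% interval -0.11 to 1.38, limma adjusted p = 0.275), and an upward change of that size therefore could not be told from none. It was called under quantile normalization, at 0.94 with an adjusted p of 0.0429, and in no other alternative. Over the 19 alternatives the change ran from 0.0036 to 0.94, with adjusted p as high as 0.996. The next probe set, 1416551_at, read 674, 240 and 152 at GV, 503, 408 and 267 at MI, and 270, 293 and 306 at MII. Its 3 MII arrays lay close together inside the much wider range of the GV arrays. Probe sets 1452363_a_at and 1427251_at spread widely among the GV arrays and overlapped at all stages, with ranges of 39.2 to 231 and 9.08 to 226 over the 9 arrays. The 4 Atp2a2 probe sets above background differed in sign between MII and GV, 1 above 0 and 3 below, from -0.55 to 0.64. The remaining 2 read 1.01 to 14.1.

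Stim1, the calcium sensor in the store membrane, gave no probe set above background. The brighter one, 1448320_at, read 4.43, 3.34 and 5.19 at GV, 1.71, 4.36 and 3.42 at MI, and 4.64, 27.9 and 11.2 at MII. The MII arrays were all above the MI arrays, at intensities where most of the array's probe sets lie. Its log2 change was 0.60 in MII against MI (SE 0.28, limma adjusted p = 0.271). Over both Stim1 probe sets only 2 of 18 values reached 16, so a change in this mRNA was not detectable with this signal.

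Orai1 encodes the pore of the store-operated channel, and it had its highest signal at MI with both probe sets. Probe set 1424989_at read 302, 327 and 183 in GV arrays, 367, 403 and 419 in MI arrays, and 180, 285 and 110 in MII arrays. All MI arrays were above all GV arrays and all MII arrays, while GV and MII overlapped. Probe set 1424990_at read 39.2, 89.1 and 75.6 at GV, 729, 140 and 189 at MI, and 62.6, 62.7 and 79.6 at MII. Again every MI array stood above every array of the other stages, and MI array 1 was far above the rest. For the first probe set the log2 change was -1.08 in MII against MI (SE 0.35, limma adjusted p = 0.109) and 0.56 in MI against GV (SE 0.35, adjusted p = 0.853). For the second the same changes were -1.78 (adjusted p = 0.135) and 1.83 (adjusted p = 0.620), or -1.09 and 1.14 without MI array 1. Neither step passed the test, although the mean over both probe sets was called in MII against MI, at -1.43 with an adjusted p of 0.0246. The difference between the second and the first step of maturation was -1.64 for Orai1 (SE 0.61, adjusted p = 0.348). The granulosa, cumulus and theca markers above background did not all share a course. Tnfaip6, a cumulus cell gene, read 2.44, 4.86 and 4.00 at GV and peaked at MI with 75.9, 77.4 and 45.8. Its MII arrays read 3.08, 23.7 and 2.19. Ptx3 likewise averaged 14.2 at GV, 79.1 at MI and 25.1 at MII. Inhba (18.0, 115 and 26.5) and Hsd17b1 (69.1, 110 and 19.8) also had their highest means at MI. So did Fst (24.8, 53.4 and 10.9) and Ptgs2 (10.4, 67.3 and 34.6). For Inhba, Hsd17b1, Fst and Ptgs2, MI array 3 was the brightest of the MI arrays. At the same stages Amhr2 (87.2, 24.8 and 43.6) and Star (163, 62.1 and 80.2) had their lowest means at MI. Nr5a2 (85.2, 129 and 444) had its highest at MII. Inha (53.8, 25.8 and 6.11) and Cyp11a1 (531, 530 and 163) had their lowest means at MII and did not peak at MI. The summed granulosa, cumulus and theca markers were highest in MI array 3, at 1633, and were 1155 in MI array 1, where 1424990_at was brightest. Cyp11a1 made up 490 of that 1155, so the sum says little of the dimmer markers. Ptx3 read 162, 9.05 and 66.3 in the MI arrays, and was thus also brightest in MI array 1. The part of these markers in the Orai1 values was not tested.

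Trpm7 encodes an entry channel for calcium and magnesium that carries a kinase domain. Its brightest probe set by mean log2 value, 1416801_at, read 191, 87.8 and 67.4 at GV, 105, 73.7 and 225 at MI, and 135, 111 and 175 at MII. The 3 stages overlapped, with a log2 change of 0.34 in MII against GV (SE 0.46, limma adjusted p = 0.747). Probe set 1416799_at behaved otherwise, with 200, 25.8 and 34.5 at GV, 181, 595 and 76.3 at MI, and 19.2, 11.5 and 13.1 at MII. All its MII arrays were near background and below every array of GV and MI. Its log2 change was -2.88 in MII against MI (SE 0.80, adjusted p = 0.0924 over all probe sets), and it was called, at an adjusted p of 0.0443, when the dimmest 40% of probe sets were left out. The third probe set, 1416800_at, read 84.1, 316 and 26.6 at GV, 67.3, 42.8 and 93.8 at MI, and 281, 11.9 and 170 at MII, and spread more within stages than between them. The 3 Trpm7 probe sets above background therefore did not share a direction, and the annotation used here does not say which transcript each one reads.

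Cacna1h encodes the pore of the T-type voltage-gated channel Cav3.2. Probe set 1422710_a_at read 803, 228 and 236 at GV, 138, 188 and 297 at MI, and 176, 217 and 204 at MII. Every MII array was below every GV array by a narrow margin, and GV array 1 stood far above all others. The log2 change was -0.79 in MII against GV (SE 0.49, limma adjusted p = 0.389), and -0.21 without GV array 1. Its second probe set was at background, from 2.41 to 11.3.

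Camk2g, the calmodulin kinase II gene of mouse eggs, had lower polysome-bound signal after the GV stage with both probe sets. Probe set 1423941_at read 6075, 1298 and 1139 at GV, 928, 765 and 637 at MI, and 644, 702 and 352 at MII. GV array 1 was by far the brightest, and all MI and MII arrays lay below the dimmest GV array. Probe set 1423942_a_at read 664, 746 and 726 at GV, 455, 260 and 198 at MI, and 352, 150 and 495 at MII. Here the 3 GV arrays were close together, and again no MI or MII array reached them. The log2 change of the first was -1.91 in MII against GV (SE 0.62, 95% interval -3.33 to -0.49, limma adjusted p = 0.0816) and -1.42 in MI against GV (SE 0.62, adjusted p = 0.695). Without GV array 1 the MII change was -1.14 at an adjusted p of 0.0905. The second probe set gave -1.21 in MII against GV (SE 0.44, adjusted p = 0.164) and -1.26 in MI against GV (adjusted p = 0.702). The changes in MII against MI were smaller than their errors, -0.49 (SE 0.62) and 0.06 (SE 0.44). The mean over both probe sets was called in MII against GV, at -1.56 with an adjusted p of 0.0212.

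Camk2d encodes the delta form of the same kinase and gave no signal above background with any of 7 probe sets, of which 3 of 63 values reached 16. Its brightest, 1427763_a_at, read 16.8, 25.0 and 14.9 at GV, 12.5, 12.03 and 15.2 at MI, and 11.7, 15.6 and 5.85 at MII. The stages overlapped throughout.

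Camk1d encodes calmodulin kinase I delta, a kinase that needs calmodulin and an upstream kinase for full activity. Probe set 1452050_at read 7.26, 6.98 and 6.19 in the GV arrays, 192, 37.1 and 245 in the MI arrays, and 1004, 455 and 168 in the MII arrays. All GV arrays were at background, every MI array was above them, and MII and MI overlapped. Camk1d rose by 4.29 on the log2 scale in MII against GV, with an SE of 0.73, a 95% interval of 2.60 to 5.97 and a limma adjusted p of 0.00735. Because GV was at background, the change was 5.77 with 1 added to the intensities in place of 16 and 2.83 with 64, and the mean over all its probe sets gave 2.50, all called. Both steps that make up this span gave 2.64 in MI against GV (SE 0.73, adjusted p = 0.497) and 1.65 in MII against MI (SE 0.73, adjusted p = 0.246), neither of them called. The difference between the steps was -0.995 (SE 1.27, adjusted p = 0.860), so the data do not place the rise in either step. Probe set 1426389_at read 96.1, 1.00 and 1.01 at GV, 56.5, 54.5 and 54.0 at MI, and 393, 245 and 202 at MII. Its 3 MII arrays were above all other arrays, the MI arrays were nearly equal, and GV array 1, unlike the other GV arrays, stood above the MI arrays. It rose by 3.16 in MII against GV (SE 0.69, adjusted p = 0.0288 over all probe sets), a call lost in 6 of the 9 fits that each left out 1 array (GV 2, GV 3, MI 2, MII 1, MII 2 or MII 3, with adjusted p of 0.0512 to 0.0930). The third probe set stayed at background, from 2.54 to 5.25.

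**Figure D2:**
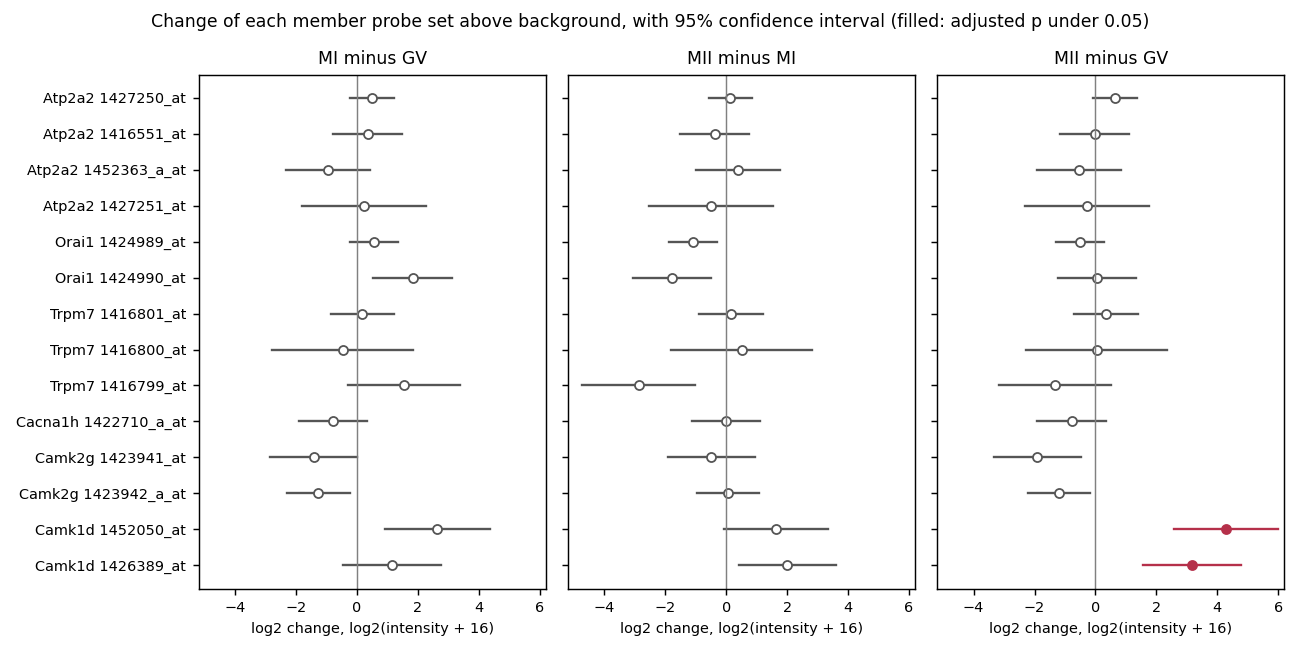
Log2 change in log2(intensity + 16) of each of the 14 probe sets above background for the 3 comparisons of stages, with 95% intervals from limma. Filled red points mark an adjusted p under 0.05, and the probe sets below background are not drawn. The only red points are both Camk1d probe sets above background, in the panel of MII against GV.

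Over the first 4 h after the hormone, MI against GV, 0 of 8 genes and 0 of 28 probe sets passed, as did 0% of all genes and 0% of all probe sets. At an unadjusted p under 0.05 limma gave 2 of the 8 genes, Camk2g and Camk1d, and 1308 of all 18193 genes, or 7.19%. The step to MII against MI again gave 0 of 8 called genes, against 9.32% of all genes, and 0 of 28 probe sets, against 5.42% of all. There 1 of the 8, Orai1, had an unadjusted p under 0.05, as did 21.4% of all genes. Over the whole span, MII against GV, 1 of 8 genes passed, Camk1d, against 14.3% of all genes, and 2 of 28 probe sets, against 8.98% of all. One gene of 8 is near the share of all genes, so the count says nothing particular of the list. The median log2 change of the 8 genes was 0.05 in MI against GV, 0.07 in MII against MI and -0.02 in MII against GV, beside 0.01, -0.02 and -0.02 over all genes. The difference between the steps passed for 0 of 8 genes, against 0.209% of all genes, and 1 of the 8, Orai1, had an unadjusted p under 0.05, as did 11.3% of all genes.

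Among the 14 probe sets above background, the arrays of MI and GV did not overlap in 5, against 14.6% of all probe sets above background. MII and MI did not overlap in 4, against 37.5% of all, and MII and GV in 6, against 45.2% of all. The 6 were both of Camk2g, both of Camk1d, one of Trpm7 and the one of Cacna1h. By stage means, 4 of the 14 climbed from GV through MI to MII, 3 descended through the stages, 4 peaked at MI and 3 had their lowest mean there. GV array 1 was the highest GV array for 8 of the 14, or 57.1%, against 39.3% of the 18650 probe sets above background.

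Profiles over the 9 arrays were compared by the mean absolute difference of the centred log2 values, against 9777 genes above background, with the brightest probe set for each gene. The profile nearest to that of Atp2a2 was Kmt2d, at a distance of 0.112, and next Jag1, at 0.115. Orai1 was nearest to H2bc22 (0.182) and Nrf1 (0.184). Trpm7 was nearest to Kntc1 (0.223) and Map11 (0.227), and Cacna1h to Knstrn (0.244) and Wiz (0.258). Camk2g was nearest to Notch3 (0.245) and Faf1 (0.303). Camk1d had the most distant neighbours, Epha3 at 0.509 and Rap2c at 0.574. Its median distance over the 9777 genes was also the largest, 1.91, against 0.8 to 1.04 for the other members. The receptor tyrosine kinase gene Epha3 read 6.68, 3.14 and 31.7 at GV, 121, 15.4 and 122 at MI, and 306, 353 and 101 at MII. Like Camk1d, it was lowest at GV, and its second MI array was the dimmest of that stage. Among these 6 genes the closest pair was Atp2a2 and Trpm7, at 0.455, where the median distance over the 9777 genes was 0.8 for Atp2a2 and 0.866 for Trpm7. The named profiles were the nearest of a far larger pool than the other members, so their shorter distances do not show how alike the members are.

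Another 156 genes of calcium signalling and egg activation were read in 8 lists, and 143 were measured, 86 of them above background. Of these, 6 rose and 15 fell in MII against GV, or 14.7% against the 14.3% of all genes, whose median change was -0.02. There were 3 that rose and 11 that fell in MII against MI, or 9.79% against 9.32%, and 0 passed in MI against GV. The 14 calls in MII against MI were 8 without MI 1, MII 2 or MII 3 and 5 without MI 2.

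**Figure D3:**
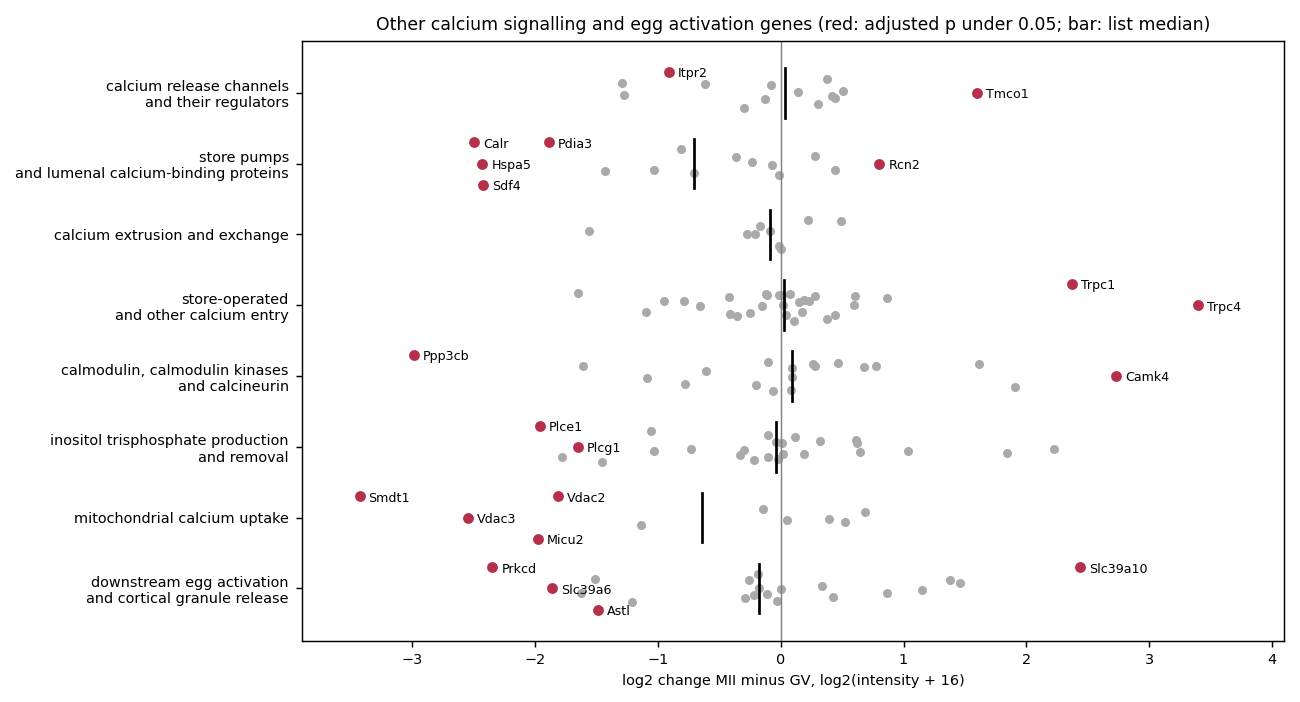
Log2 change in MII against GV in log2(intensity + 16) of the 143 measured genes in 8 lists of calcium signalling and egg activation; points are genes, red marks an adjusted p under 0.05 and black bars are list medians. Of the red points 4 of 5 among store proteins and 4 of 4 among mitochondrial genes lie below 0, while both of calcium entry lie above it.

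In the store, 4 of 15 pumps and lumenal proteins fell in MII against GV and 1 rose, or 33.3% called against 14.3% of all genes. None of the calls was a pump. The pump genes Atp2a1 and Atp2a3 were below background, and Atp2c1 had a change of -0.01 (limma adjusted p = 0.993). The list median was -0.71, beside -0.02 over all genes. Of this list 12 of 15 genes were above background, against 10187 of all 18193, so the 14.3% is not a like share. Above background the median was -0.922 for the list and -0.164 for all genes. Hspa5, the chaperone BiP that also holds calcium, read 747, 500 and 302 in MII eggs, against 2181, 2817 and 3119 in GV oocytes. All its MII arrays were below all GV arrays, with a log2 change of -2.43 and an adjusted p of 0.00372. Calr, calreticulin, the main calcium buffer of the store, read 1222, 871 and 237 in MII eggs, against 3967, 3662 and 3397 in GV oocytes. It fell by 2.50 (adjusted p = 0.0161), a call lost at 0.0503 without GV array 1, and its other 2 probe sets above background gave -2.84 and -3.97. Sdf4, a calcium-binding protein of the secretory pathway, fell by 2.42 (adjusted p = 0.0103), though another of its probe sets gave 0.21 and the mean over its probe sets was not called (0.211). Pdia3, a disulphide isomerase that works with calreticulin, fell by 1.89 (adjusted p = 0.0211). Leaving out GV 2, GV 3, MII 2 or MII 3 lost the Pdia3 call, at 0.0600 to 0.0719, as did scaling to the 95th percentile (0.0543) and the mean over probe sets (0.0963). Rcn2, a lumenal calcium-binding protein named after its values were seen because it was the list's single rise, had a change of 0.80 that passed at an adjusted p of 0.0453 and missed the threshold in each of the 9 fits that left out an array, and in 7 of the other alternatives.

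Of 14 measured release channels and their regulators, 1 fell and 1 rose in MII against GV. Itpr2, a receptor for inositol trisphosphate related to Itpr1, read 1650, 1687 and 1476 in MII eggs, against 2864, 3007 and 3200 in GV oocytes. The stages were well apart, and the change was -0.91 (adjusted p = 0.0133). That call was lost with 1 added before logs (0.177), under quantile normalization (0.0665), without the dimmest 40% of genes (0.0632) and with the mean over its probe sets (0.956). Its dimmer probe sets gave -0.46 and 1.42. Tmco1, a channel that lets calcium leak from an overfull store, read 497, 442 and 350 in MII eggs, against 85.1, 183 and 138 in GV oocytes. It rose by 1.60 (adjusted p = 0.0136), and its MI arrays, at 327, 550 and 364, already overlapped those of MII.

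Of 30 measured genes of calcium entry, 2 rose in MII against GV, both of the TRPC channel family. Trpc4 read 383, 654 and 3996 in MII eggs, against 82.9, 114 and 55.1 in GV oocytes. Every MII array was above every GV array, but MII array 3 was far above the others. Its change was 3.40 (adjusted p = 0.0243), and the call was lost without any one of the 3 GV arrays, at adjusted p of 0.0540 to 0.0796, and with only the 2 stages fitted (0.0563). Trpc1 rose by 2.37 (adjusted p = 0.0458) with overlapping arrays, a call that stood only without GV 1 or MII 2 among the 9 fits that left out an array, and was lost with 64 added before logs (0.0561), with only the 2 stages fitted (0.0969) and with a variance trend (0.0538). None of 9 genes of extrusion and exchange passed, and the member with the smallest p, the exchanger gene Slc24a3, had a change of -1.56 (adjusted p = 0.398).

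Of 19 measured genes of calmodulin signalling, 1 rose and 1 fell in MII against GV. Camk4, a calmodulin-dependent kinase best known in neurons and T cells, read 247, 234 and 296 in MII eggs, against 33.1, 25.4 and 18.6 in GV oocytes. Its arrays were far apart between the stages, and it rose by 2.73 (adjusted p = 0.00166), with MI arrays between at 33.4, 47.3 and 87.7. It also rose in MII against MI, by 2.00 (adjusted p = 0.00733). The mean over its probe sets was not called in either comparison, at 0.57 in MII against GV (0.0715) and 0.60 in MII against MI (0.0756). Ppp3cb, a catalytic subunit of the calmodulin-dependent phosphatase calcineurin, read 58.9, 41.8 and 56.0 in MII eggs, against 498, 457 and 621 in GV oocytes. It fell by 2.98 (adjusted p = 0.00261), while its other 2 probe sets above background gave -0.01 and 0.37 and the mean over its probe sets was not called (-0.40, adjusted p = 0.330).

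Of 25 genes that make or remove inositol trisphosphate, 2 fell in MII against GV. Plce1, phospholipase C epsilon, read 387, 478 and 531 in MII eggs, against 1475, 2145 and 1969 in GV oocytes, and fell by 1.96 (adjusted p = 0.00227). Plcg1, phospholipase C gamma, fell by 1.65 (adjusted p = 0.0267), a call lost without GV 2 (0.0821) or GV 3 (0.0860), with 1 added before logs (0.0587), under quantile normalization (0.0672), with only the 2 stages fitted (0.0619) and with a variance trend (0.0700). Against MI, Plce1 in MII fell, by 1.92 (adjusted p = 0.00385), and Plcb3, named after its values were seen because it was the list's single rise there, had a change of 3.42 that passed at an adjusted p of 0.0482 and missed the threshold without GV 1, any MI array, MII 2 or MII 3, and in 4 of the other alternatives.

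Of 10 measured genes of mitochondrial calcium uptake, 4 fell in MII against GV and 0 rose, or 40% called against 14.3% of all genes. The list median was -0.64, beside -0.02 over all genes. Here 9 of 10 genes were above background, against 10187 of all 18193, so the 14.3% is again not a like share. Above background the median was -1.14 for the list and -0.164 for all genes. Smdt1, which encodes EMRE, an essential small subunit of the uniporter, read 131, 101 and 150 in MII eggs, against 2598, 1202 and 1102 in GV oocytes. It fell by 3.43 (adjusted p = 0.00325), with every MII array below every GV array. Micu2, a calcium-sensing gatekeeper of the uniporter, fell by 1.97 (adjusted p = 0.0134), a call lost at 0.0501 without MII array 3. Vdac3 and Vdac2, channels of the outer membrane, fell by 2.55 (adjusted p = 0.00454) and 1.82 (adjusted p = 0.0408). The Vdac2 call stood only without GV 2, MI 1 or MI 3 among the 9 fits that left out an array, and was lost with 1 added before logs (0.0692).

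Downstream of the calcium signal, 1 of 21 measured genes rose and 3 fell in MII against GV. Slc39a10, a zinc importer, read 4576, 2068 and 2723 in MII eggs, against 888, 355 and 480 in GV oocytes. It rose by 2.43 (adjusted p = 0.0138), and its other probe set above background gave 2.55. Slc39a6, a related importer, fell by 1.86 (adjusted p = 0.00686), while its other 3 probe sets above background gave -0.22 to -0.47. Prkcd, protein kinase C delta, fell by 2.35 (adjusted p = 0.00844). Astl, which encodes ovastacin, the cortical granule protease that hardens the zona pellucida after fertilisation, read 2469, 2480 and 2061 in MII eggs, against 6858, 6211 and 6582 in GV oocytes, and fell by 1.48 (adjusted p = 0.00852), a call lost with 1 added before logs (0.0536). The oocyte marker sums given above were also lower in MII eggs than in GV oocytes, with Zp1, Zp2, Zp3, Nlrp5 and Figla falling and Oosp1, Dazl and Mos rising by the same test, and their part in the falls of these lists was not tested.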

How the data were processed

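Polysome-bound mRNA of mouse oocytes was hybridised to Affymetrix mouse whole-genome arrays after linear amplification with a whole-transcriptome kit for degraded RNA, per the labels' protocols. The authors deposited 1 linear intensity per probe set and array; how probes were summarised, corrected and scaled is not given in the sources used here, nor is a genome build, so no coordinates are printed. Of 45101 probe sets, 64 controls were left out. The platform annotation gave 34945 others a single gene symbol, 932 several and 9160 no symbol. Of the 34945, only the brightest probe set of each symbol was tested as the gene. A RefSeq table (GRCm38.p6) held 18032 of 18193 genes and changed 0 symbols.

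Values were transformed to log2(intensity + 16), with no filter, and 1 model of stage means over the 9 arrays was fitted in R 4.3.3 with limma 3.58.1 (lmFit, eBayes). Each pair of stages was contrasted, the later minus the earlier, and the second step minus the first, all two-sided. Adjusted p-values follow Benjamini-Hochberg over 18193 genes, each by its probe set of highest mean log2 value, or over 45037 probe sets. The script was tested on simulated data. No 2 arrays were identical, and 0 columns belonged to no sample.

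The members and lists were chosen with earlier results of these data known. Named were all members, up to 4 called genes per list by size of change and, where none passed, the 1 with the smallest p, plus 2 nearest profiles per member. Genes outside this are said to be so.

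Alternatives were pseudocounts of 1 and 64, quantile normalization, centring on the median, scaling to the 95th percentile, leaving out the lowest 40% of features, the mean over probe sets, a trend of the variance on mean signal, only the 2 stages compared, replicate number as a block, and leaving out each array.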

Additional observations from a re-analysis of the deposited data

How the results depend on the processing

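Camk1d stayed called in MII against GV in all 19 alternatives, with changes of 2.50 to 5.77 and a highest adjusted p of 0.0274. The called genes in MII against GV numbered 2 under quantile normalization (Atp2a2 joined), 2 with the mean over all probe sets of a gene and 2 with the replicate block (Camk2g joined in both, with the block at an adjusted p of 0.0498). In MII against MI the mean over probe sets called 1 gene, Orai1. Called probe sets in MII against MI numbered 1 without the lowest 40% of signal (Trpm7), 1 with only the 2 stages compared (Camk1d 1426389_at) and 0 to 1 without single arrays (1 without GV 1). In MII against GV they numbered 1 with only the 2 stages and 1 to 2 without single arrays, because 1426389_at was lost without GV 2, GV 3, MI 2 or any MII array. Same-numbered arrays correlated at 0.0123 to 0.218 in their deviations from stage means and 7 of 9 arrays were nearest to one with their number, a hint from the data and not the design, so the number was not taken as a pairing.

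Some uncalled changes turned sign. In MII against MI, Cacna1h was 0.0037 with a pseudocount of 1, 0.18 under quantile normalization, 0.19 with 95th percentile scaling and -0.24 to 0.27 without single arrays. With the mean over probe sets, Atp2a2 was -0.056 and Trpm7 -0.54 in MII against MI, and Trpm7 -0.26 in MII against GV. Atp2a2 1416551_at was 0.12 under quantile normalization and 0.19 with 95th percentile scaling in MII against GV, Atp2a2 1427251_at -0.031 in MI against GV with a pseudocount of 64, and Trpm7 1416800_at -0.086 in MII against GV with a pseudocount of 1. Without single arrays, changes in MI against GV ran from -0.22 to 0.56 for Trpm7, -0.085 to 0.93 for 1416551_at, -0.35 to 1.29 for 1427251_at and -1.16 to 0.32 for 1416800_at. The ranges in MII against MI were -0.11 to 0.33 for Atp2a2, -0.15 to 0.57 for Trpm7, -0.15 to 0.76 for Atp2a2 1452363_a_at, -0.17 to 1.53 for 1416800_at and -0.29 to 0.52 for Camk2g 1423942_a_at. Those in MII against GV were -0.46 to 0.56 for 1416551_at, -0.85 to 0.79 for 1427251_at, -0.23 to 0.24 for Orai1 1424990_at and -0.66 to 1.07 for 1416800_at. The cause was not tested.

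For the pathway lists the alternatives were added after seeing the data. The 14 calls in MII against MI were 8 with a pseudocount of 1, 8 with only the 2 stages and 5 to 15 without single arrays. Of 21 genes called in MII against GV all 21 kept their sign, 8 stayed called in every fit and 13 in every fit without a single array. Of all genes called in MII against MI, 27.3% rose, but 42.2% under quantile normalization and 41.4% with 95th percentile scaling. Signal over background limits what can be said of Stim1 and Camk2d.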
